A study of Mus musculus with 24 samples.

Results

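The glucocorticoid-responsive genes Fkbp5, Sgk1, Tsc22d3, Zbtb16, Hif3a, Plin4, Errfi1 and Cdkn1a were followed through all 7 groups of a mouse hippocampal RNA-Seq study to ask whether swimming or foot shock left a stress-hormone trace in them. The members were set by name, as known targets of the hormone, and found in the count table by their gene identifiers. They were chosen with earlier results of these data known, so counts of members are not independent of the data. They are 8 of the 51826 genes of the count table, and all 8 passed the filter on low counts in all 4 fits. All mice were C57BL/6j, labelled male, about 3 months old by the study's account, and the tissue was dorsal hippocampus. CBP KIX/KIX mice carry point mutations in every cell of the body in the KIX domain of CBP, the surface by which this co-activator binds phosphorylated CREB, and their wildtype (WT) littermates served as controls. RNA-Seq 1 held 3 WT homecage, 3 WT and 3 CBP KIX/KIX libraries from mice trained in the Morris water maze (MWM), killed 1 h after trial 4 of day 3. RNA-Seq 2 held 3 WT homecage and 4 CBP KIX/KIX homecage libraries and 4 libraries of each genotype from mice killed 1 h after contextual fear conditioning (CFC), in which a single foot shock is paired with a new chamber; the homecage mice were handled and not shocked. The design holds no CBP KIX/KIX homecage group beside the water maze.

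Glucocorticoids, mainly corticosterone in mice, enter cells and bind 2 nuclear receptors, the high-affinity mineralocorticoid receptor Nr3c2 and the lower-affinity glucocorticoid receptor Nr3c1, both abundant in the hippocampus. Bound receptors act on DNA as dimers at a palindromic element, and the induced genes are spread over neurons, glia and vessels. Restraint, swimming and foot shock all release the hormone, and the induced transcripts are commonly used as readouts of it. Several of the genes, Per1, Dusp1, Sgk1 and Errfi1 among them, also answer to neuronal activity or growth factors.

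The member genes hold 2 elements of interest in their promoters, and these are shown because one is the dimer element of the glucocorticoid receptor and the other is the element of CREB, the partner of the KIX domain. RefSeq promoter windows (GRCm38.p6, 250 bases before to 50 after a start) were found for 7 of the 8 members, 16 windows in all, and for Zbtb16 none was used here. The full receptor element, AGAACA and TGTTCT set 3 bases apart, which reads the same on both strands, stood in 1 member window, at Sgk1, and in 3 of all 32851 windows (0.00913%). The full cAMP response element TGACGTCA, also the same on both strands and not overlapping the first, stood in 1 member window, at Errfi1, and in 588 windows (1.79%). The 250 bases before each start are printed with the match in capitals, 189 to 175 bases before the start at Sgk1 and 51 to 44 bases before it at Errfi1. Both stretches lie inside the span of their gene, directly upstream of the first exon of a shorter transcript.
Sgk1, chr10:21993640-21993889, plus strand: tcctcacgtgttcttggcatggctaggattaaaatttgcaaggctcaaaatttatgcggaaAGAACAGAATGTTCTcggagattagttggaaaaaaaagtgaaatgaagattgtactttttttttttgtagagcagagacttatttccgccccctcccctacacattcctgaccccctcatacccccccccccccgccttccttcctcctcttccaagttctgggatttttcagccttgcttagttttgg
Errfi1, chr4:150854820-150855069, plus strand: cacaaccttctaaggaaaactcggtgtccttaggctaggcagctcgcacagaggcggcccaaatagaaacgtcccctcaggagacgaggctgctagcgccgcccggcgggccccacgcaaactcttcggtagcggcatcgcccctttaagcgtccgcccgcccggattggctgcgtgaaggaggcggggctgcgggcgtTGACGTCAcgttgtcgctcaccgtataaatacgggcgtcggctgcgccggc

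Library totals ran from 38174044 to 65709282 counts in RNA-Seq 1 and from 15385836 to 46056290 in RNA-Seq 2, and the smallest member count in any library was 54. The 4 hippocampal subfield markers and the 5 neuron markers were above 0 in every library. The point mutations themselves cannot be read from gene counts, and the genotype labels were not checked by way of other genes. Levels are given as CPM, a gene's counts scaled to a common library total. The experiments differed in RNA selection, ribosomal depletion in RNA-Seq 1 and, by the study's account, poly-A selection in RNA-Seq 2 (the labels of the 4 CBP KIX/KIX homecage libraries do not give it), so that kit and experiment cannot be told apart and levels were compared within an experiment. The tissue is a mixture, in which fewer cells of a type and less RNA per cell cannot be told apart.

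In RNA-Seq 2, 3 homecage libraries stood apart in the member genes, each with 3 of 8 members above 1.5 times the median of the other 14 libraries, whereas no other RNA-Seq 2 library had any. In WT homecage replicate 3, Plin4 was at 17.2 CPM, which was 5.39 times the median of the others, Hif3a at 13.1 CPM (2.78 times) and Tsc22d3 at 75.2 CPM (1.58 times). Zbtb16 was also highest of all 15 libraries there. In CBP KIX/KIX homecage replicate 3 the high members were Cdkn1a at 15.01 CPM (2.21 times), Errfi1 at 74.4 CPM (1.75 times) and Sgk1 at 119.7 CPM (1.72 times). In CBP KIX/KIX homecage replicate 4 they were Cdkn1a at 21.2 CPM (3.11 times), Plin4 at 5.72 CPM (1.79 times) and Fkbp5 at 100.1 CPM (1.75 times). No member exceeded 1.5 times the median in all 3 libraries. Of all 18851 genes tested, 4.45%, 7.77% and 9.27% exceeded 1.5 times in the 3 libraries, in that order. The list of 10 activity-induced genes, Fos and Arc among them, was high in only 1 of the 3 libraries. All 10 were at their highest of 15 libraries in CBP KIX/KIX homecage replicate 3, beside 7.44% of all genes, with a median of 3.49 times. The members Errfi1 and Sgk1 were also at their highest there, as was Per1 (133.2 CPM, 1.53 times). The medians of the 10 were 0.454 times in WT homecage replicate 3 and 0.37 times in CBP KIX/KIX homecage replicate 4. The 5 astrocyte markers summed to 2693 CPM in CBP KIX/KIX homecage replicate 4 and to 1234 to 1897 CPM in the other 14 libraries, and none was at 0 in any. Gfap (1596 CPM) and Aqp4 (255.8 CPM) were above all other libraries there, whereas Aldh1l1, Slc1a3 and Gja1 lay within their range. These libraries were the shallowest of the experiment (15385836, 16567226 and 15940061 counts). What set them apart was not tested. Within RNA-Seq 2, member differences are given with and without them, in the figures of log2 fold changes too, a choice made after seeing the data. The 3 were picked by their high member values and all are homecage libraries. Leaving them out therefore tends to raise trained values relative to homecage by construction. Values without them describe how far a difference rests on these libraries and are not a test of it.

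**Figure D1:**
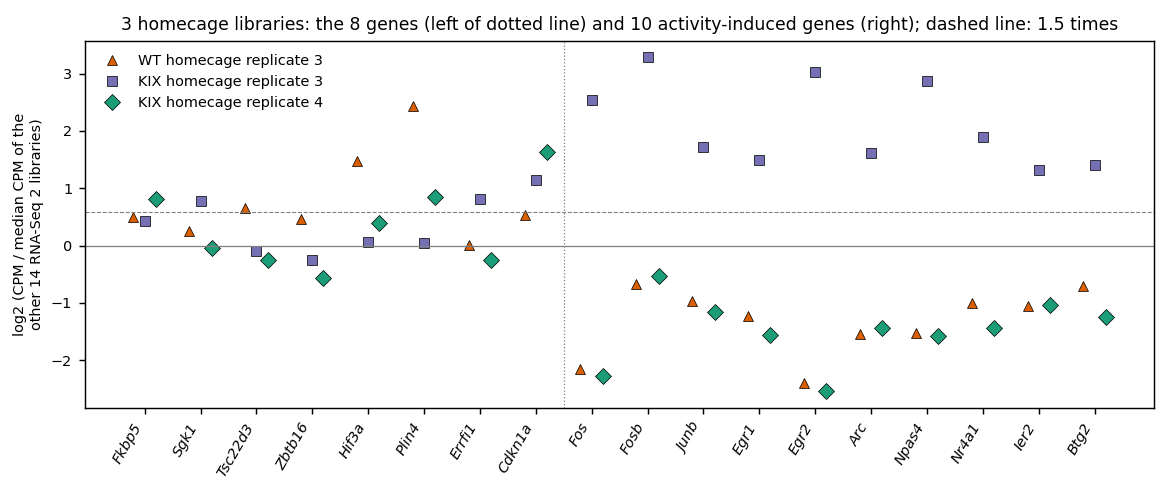
For each of the 3 RNA-Seq 2 homecage libraries that stood apart, the log2 ratio of a gene's CPM to its median in the other 14 libraries (vertical axis) is plotted for the 8 member genes and 10 activity-induced genes (horizontal axis). Plin4 stands highest in WT homecage replicate 3 and Cdkn1a in CBP KIX/KIX homecage replicate 4, and the activity-induced genes lie above the 1.5 times line only in CBP KIX/KIX homecage replicate 3.

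Per kilobase of exon, the members fell into a well-expressed and a low set. In the WT homecage libraries of RNA-Seq 1 the level of Zbtb16 was 24.1 ± 4.44 CPM per kb (SD, n = 3), followed by Tsc22d3 at 10.6 ± 0.616, Sgk1 at 10.4 ± 0.99, Errfi1 at 7.42 ± 0.273 and Fkbp5 at 5.78 ± 0.139. Tsc22d3 and Sgk1 did not differ beyond their spread. Plin4, Cdkn1a and Hif3a stood lower at 1.37 ± 0.163, 0.773 ± 0.0718 and 0.316 ± 0.115 CPM per kb. In the 4 WT CFC libraries of RNA-Seq 2, Sgk1 (16.1 ± 3.15 CPM per kb), Errfi1 (12.96 ± 0.83) and Tsc22d3 (12.2 ± 1.22) lay within each other's spread at the top and Plin4 was lowest at 0.562 ± 0.0588.

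**Figure D2:**
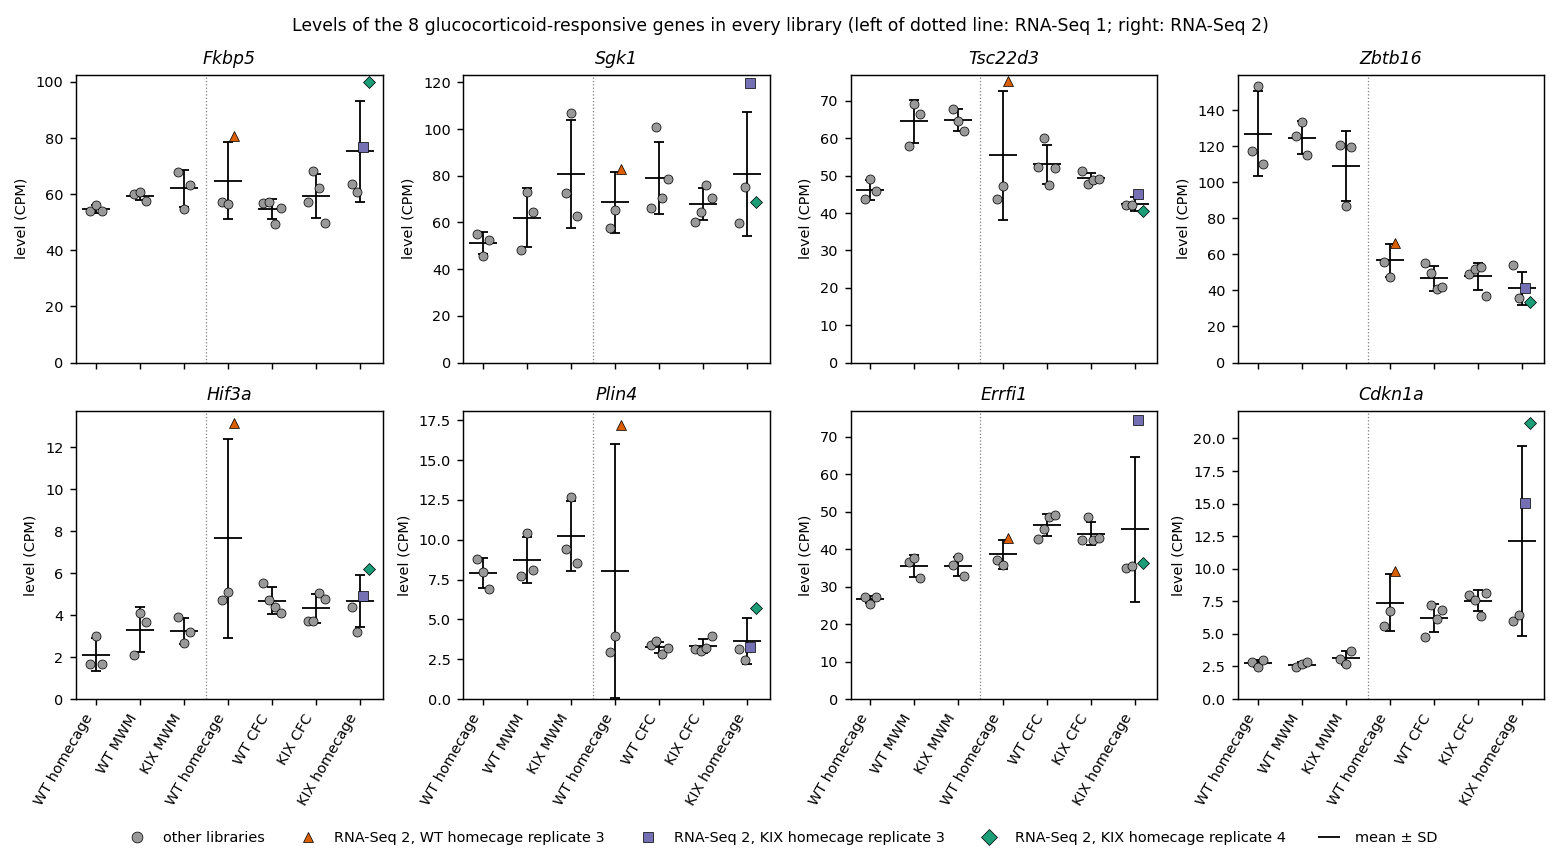
The level in CPM (vertical axis) of each of the 8 member genes is shown in all 24 libraries by group (horizontal axis), with the mean and SD of each group and the 3 RNA-Seq 2 homecage libraries that stood apart drawn as a triangle, square and diamond. Errfi1 and Tsc22d3 are higher in all 3 WT MWM libraries than in any WT homecage library of RNA-Seq 1. The wide bars of the RNA-Seq 2 homecage groups come from 1 or 2 libraries. Sgk1 in WT CFC also has a wide bar, with replicate 2 at 100.8 CPM.

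After the water maze in WT mice, Tsc22d3 and Errfi1 were higher in each trained library than in any homecage library, but no member passed the threshold of edgeR adjusted p below 0.05. Tsc22d3 encodes GILZ, a leucine zipper protein that mediates anti-inflammatory actions of glucocorticoids, and read 43.8, 49.1 and 45.8 CPM in the homecage libraries and 57.9, 69.2 and 66.4 CPM in the MWM libraries. The difference was 0.48 on the log2 scale (SE 0.09, 1.4-fold), with adjusted p = 0.167 by edgeR's quasi-likelihood test. Errfi1, a feedback inhibitor of the epidermal growth factor receptor kinases, read 27.1, 25.5 and 27.2 CPM in homecage and 36.6, 37.7 and 32.3 CPM after MWM. Its difference was 0.42 (SE 0.09, 1.34-fold, edgeR adjusted p = 0.225). Both genes crossed the threshold under another tool or filter: with DESeq2 the adjusted p was 0.000115 for Tsc22d3 and 0.00571 for Errfi1, with no filter on low counts it was 0.0124 and 0.0415, and without WT homecage replicate 3 of RNA-Seq 1 it was 0.0116 and 0.016. The number of genes called rose with these settings too, from 3 to 80 with DESeq2, 131 with no filter and 2418 of 22563 without that library. The 5 endothelial markers summed to 144.6 to 161.9 CPM in the homecage and 105.3 to 126.5 CPM in the MWM libraries, with none at 0, and their part in these differences was not tested. Over all 13 alternatives the difference of Tsc22d3 stayed between 0.43 and 0.55 and that of Errfi1 between 0.36 and 0.48.

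Fkbp5, the co-chaperone that lowers the hormone affinity of the receptor and is itself among its most used targets, read 54.0, 56.2 and 53.9 CPM in homecage and 59.99, 60.7 and 57.7 CPM after MWM, so that the groups did not overlap, with a difference of 0.12 (SE 0.09, edgeR adjusted p = 0.62). The hypoxia-inducible factor Hif3a read 1.68, 3.01 and 1.66 CPM against 2.09, 4.12 and 3.69 CPM (log2 0.65, SE 0.28, edgeR adjusted p = 0.43), and the groups overlapped. Sgk1, the serum- and glucocorticoid-regulated kinase, read 55.2, 45.8 and 52.5 CPM in homecage and 48.2, 73.0 and 64.7 CPM after MWM. Its groups overlapped, with a difference of 0.28 (SE 0.18, edgeR adjusted p = 0.578). The lipid-droplet coat protein Plin4 differed by 0.15 (SE 0.17), the zinc-finger repressor Zbtb16 by -0.03 (SE 0.14) and the cyclin-dependent kinase inhibitor Cdkn1a by -0.06 (SE 0.16), all with overlapping groups. In all, 0 of 8 members passed, beside 0.0135% of the 22276 genes tested (3 genes, and 1 with replicate numbers as a term), and 3 of 8 had an unadjusted p below 0.05, beside 10.9%. The trained and homecage libraries did not overlap for 3 of 8 members, all higher after training, beside 3.72% of all genes that were higher in this way and 13.4% in either direction. The median member difference was 0.21 and that of all genes was -0.07.

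After contextual fear conditioning in WT mice no member passed, and the lower values of Plin4, Hif3a and Fkbp5 rested largely on 1 homecage library. Errfi1 read 37.0, 35.8 and 43.1 CPM in homecage and 42.7, 45.4, 48.6 and 49.0 CPM after CFC (log2 0.27, SE 0.2, edgeR adjusted p = 1), and the groups overlapped by the high homecage library alone. Without the 3 libraries that stood apart its difference was 0.34 (edgeR adjusted p = 0.269). Tsc22d3 read 43.8, 47.2 and 75.2 CPM in homecage and 52.4, 60.2, 47.5 and 52.0 CPM after CFC, a difference of -0.05 (SE 0.13). Without the 3 libraries the sign turned and the difference was 0.22 (edgeR adjusted p = 0.964).

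Plin4 showed the largest dependence on 1 library. It read 2.93, 3.99 and 17.2 CPM in homecage and 3.37, 3.62, 2.81 and 3.18 CPM after CFC, with a difference of -1.24 (SE 0.45, edgeR adjusted p = 1) that shrank to -0.09 without the 3 libraries. Hif3a read 4.74, 5.13 and 13.1 CPM against 5.56, 4.73, 4.37 and 4.11 CPM, and its difference went from -0.66 (SE 0.3) to -0.07. Sgk1 read 57.5, 65.4 and 83.1 CPM in homecage and 66.02, 100.8, 70.5 and 78.6 CPM after CFC (log2 0.21, SE 0.2). Its difference was 0.36 without the 3 libraries. Fkbp5 read 57.2, 56.6 and 80.6 CPM in homecage and 56.8, 57.2, 49.3 and 55.2 CPM after CFC, so that the 3 libraries' removal took its difference from -0.23 (SE 0.16) to -0.06. Zbtb16 (-0.26, SE 0.16) and Cdkn1a (-0.22, SE 0.36) likewise overlapped between groups. Without the 3 libraries their differences were -0.14 and 0.01. That of Zbtb16 stayed below 0 under all 16 alternatives (-0.38 to -0.14). edgeR called 0 of 8 members, beside 0% of 18851 genes; 2 of 8 members had an unadjusted p below 0.05, both lower, beside 2.39% of all genes, and DESeq2 called 0 of 8. No member separated the groups, beside 5.34% of all genes.

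In CBP KIX/KIX mice CFC separated 1 member from homecage. Tsc22d3 read 42.1, 42.1, 45.2 and 40.6 CPM in homecage and 51.4, 47.8, 49.0 and 49.2 CPM after CFC, higher in 4 of 4 libraries by 0.22 (SE 0.13, edgeR adjusted p = 0.498), and it was 0.22 again without the homecage libraries that stood apart. Errfi1 read 35.0, 35.6, 74.4 and 36.2 CPM in homecage and 42.4, 48.6, 42.6 and 43.0 CPM after CFC. All 4 trained libraries were above 3 of the 4 homecage libraries, and the difference went from -0.02 (SE 0.19) to 0.32 (edgeR adjusted p = 0.198) without the 3 libraries that stood apart, of which CBP KIX/KIX homecage replicate 3 alone was high in this gene (0.31, adjusted p = 0.183, when only that library was left out). Cdkn1a read 6.004, 6.44, 15.01 and 21.2 CPM in homecage and 7.996, 7.64, 6.36 and 8.13 CPM after CFC, and its difference turned from -0.65 (SE 0.33) to 0.27 without the 3. Fkbp5 read 63.6, 60.7, 76.6 and 100.1 CPM against 57.1, 68.4, 62.1 and 49.7 CPM (log2 -0.33, SE 0.15, edgeR adjusted p = 0.359), and it was -0.07 without those libraries. edgeR and DESeq2 called 0 of 8 members, beside 0% of all genes by edgeR (4 genes with replicate numbers as a term); 1 of 8 had an unadjusted p below 0.05, beside 13% of all genes, and 1 of 8 separated the groups, beside 4.91% (2.5% higher). The genotype by CFC interaction passed for 0 of 8 members with either tool and none had an unadjusted p below 0.05, beside 4.79% of all genes. For Errfi1 the interaction was -0.29 (SE 0.27) with all libraries and -0.03 without the 3.

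Over both experiments in WT mice, Errfi1 rose with learning. The fit over the 7 trained and 6 homecage WT libraries, with experiment as a block and 3 factors of unwanted variation, gave a difference of 0.35 (SE 0.05, 1.27-fold, edgeR adjusted p = 0.00443), and 7 of 7 trained libraries lay above the homecage mean of their own experiment. Within the experiments the differences were 0.42 and 0.27, and the learning by experiment interaction was 0.15 (SE 0.12, edgeR adjusted p = 0.775). The call was lost with no factors of unwanted variation, where the difference was 0.34 and the edgeR adjusted p 0.0718. With no factors and without WT homecage replicate 3 of RNA-Seq 2 the difference was 0.39 (edgeR adjusted p = 0.0134). That library was picked after seeing the member values and was the highest WT homecage library of RNA-Seq 2 in Errfi1. Leaving it out raises the difference by construction, so the lower adjusted p gives the call no support. Over 22 alternatives the Errfi1 difference ranged from 0.32 to 0.39 and its adjusted p from 2.97e-08 with DESeq2 to 0.141 in edgeR with replicate numbers as a term and no factors. With replicate numbers and the factors it was 0.34 (edgeR adjusted p = 0.00266), beside 929 genes called in place of 229.

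Errfi1 was 1 of 8 members called, beside 1.04% of the 22038 genes tested (0.404% higher), and 3 of 8 had an unadjusted p below 0.05, all higher, beside 17.3%. The others of these 3 were Tsc22d3 (log2 0.24, SE 0.1, edgeR adjusted p = 0.254, higher in 4 of 7) and Sgk1 (0.24, SE 0.1, adjusted p = 0.245, higher in 5 of 7). Without WT homecage replicate 3 of RNA-Seq 2, Tsc22d3 passed as well (0.37, edgeR adjusted p = 0.021), with 611 genes called in place of 229. Tsc22d3 was highest of the 15 RNA-Seq 2 libraries in that one, so leaving it out raises this difference by construction. Fkbp5 differed by -0.05 (SE 0.06), Zbtb16 by -0.12 (SE 0.07), Cdkn1a by -0.13 (SE 0.12), Hif3a by 0.06 (SE 0.23) and Plin4 by -0.36 (SE 0.25). The learning by experiment interaction called 0 of 8 members in edgeR, beside 0.0136% of all genes (3 genes, and 6 with replicate numbers as a term), and 4 of 8 had an unadjusted p below 0.05, beside 7.46%. These were Hif3a, Plin4, Tsc22d3 and Fkbp5, each higher after MWM relative to CFC, by 1.3, 1.35, 0.53 and 0.36 on the log2 scale. Without WT homecage replicate 3 of RNA-Seq 2 the 4 values were 0.71, 0.23, 0.26 and 0.17.

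**Figure D3:**
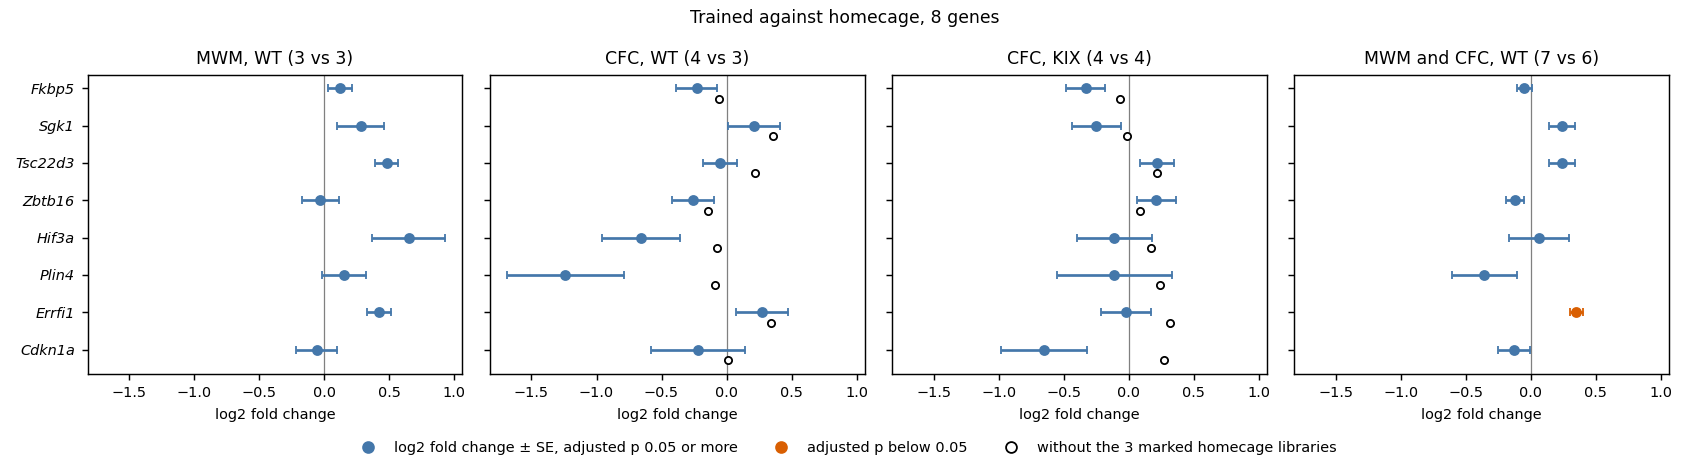
Log2 fold changes of trained against homecage libraries (horizontal axes, points with SE bars) are drawn for the 8 member genes (vertical axis) in 4 comparisons, with open circles for the values without the 3 RNA-Seq 2 homecage libraries that stood apart. Errfi1 over both experiments, at 0.35, is the only point with edgeR adjusted p below 0.05, and the Plin4 value of -1.24 after CFC moves to -0.09.

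The KIX mutation did not separate the trained groups in any member. After MWM, Tsc22d3 read 57.9, 69.2 and 66.4 CPM in WT and 68.0, 64.8 and 62.0 CPM in CBP KIX/KIX mice, a difference of 0.01 (SE 0.09). Errfi1 read 35.8, 37.8 and 32.8 CPM in the CBP KIX/KIX libraries, with a difference of 0 (SE 0.09) from WT. Sgk1 read 72.7, 107 and 62.9 CPM in them and 48.2, 73.0 and 64.7 CPM in WT (log2 0.38, SE 0.18, edgeR adjusted p = 0.813), and its highest library, with Sgk1 at 1.81 and Plin4 at 1.53 times the median of the other 8, was also the highest of RNA-Seq 1 in choroid plexus markers (2393 CPM). After CFC the largest difference was that of Cdkn1a (0.27, SE 0.33), and those of Errfi1 and Tsc22d3 were -0.07 (SE 0.19) and -0.11 (SE 0.13). edgeR called 0 of 8 members after MWM, beside 0% of all genes, with 0 of 8 at an unadjusted p below 0.05, beside 5.77%. After CFC it also called 0 of 8, beside 0.0106%, with 0 of 8 at an unadjusted p below 0.05, beside 2.34%. DESeq2 called 0 of 8 in each. The groups did not overlap for 17.2% of all genes after MWM and for 2.5% after CFC.

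Over both experiments the trained CBP KIX/KIX and WT libraries, 7 of each, were fitted with 4 factors, and again 0 of 8 members passed in edgeR and DESeq2, beside 2.84% of 21489 genes in edgeR. At an unadjusted p below 0.05 stood 2 of 8, beside 18.2%. Cdkn1a was 0.27 higher in CBP KIX/KIX mice (SE 0.11, edgeR adjusted p = 0.193), with 7 of 7 libraries above the WT mean of their experiment. Fkbp5 was 0.09 higher (SE 0.04, edgeR adjusted p = 0.26) in 5 of 7. The difference of Errfi1 was -0.04 (SE 0.04). Exons of Cdkn1a share 273 of their 3553 bases with an opposite-strand gene, and those of Plin4 share 17 of 5777. The strand setting of the counting is not given in the sources used here, so reads from these shared stretches could not be told apart.

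In homecage, 4 members read lower in CBP KIX/KIX mice, and none passed the threshold. Plin4 read 2.93, 3.99 and 17.2 CPM in WT and 3.14, 2.42, 3.28 and 5.72 CPM in CBP KIX/KIX mice (log2 -1.12, SE 0.45, edgeR adjusted p = 0.445). Hif3a differed by -0.69 (SE 0.3), Zbtb16 by -0.45 (SE 0.17) and Tsc22d3 by -0.37 (SE 0.14), and all 4 had an unadjusted p below 0.05 and overlapping groups. Without WT homecage replicate 3 alone the differences were 0.04 for Plin4, -0.1 for Hif3a, -0.33 for Zbtb16 and -0.1 for Tsc22d3. Without all 3 libraries that stood apart the 4 differences, in the same order, were -0.32, -0.38, -0.21 and -0.11, each with edgeR adjusted p = 1. Cdkn1a differed by 0.7 (SE 0.36) and by 0.01 without them. edgeR and DESeq2 called 0 of 8 members, beside 0.0265% of all genes in edgeR, and 4 of 8 had an unadjusted p below 0.05, beside 9.81%. No member separated the genotypes in homecage, beside 6.87%. Leaving out CBP KIX/KIX homecage replicate 1 brought Zbtb16 to -0.61 with edgeR adjusted p = 0.0469, and the genes called from 5 to 445.

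**Figure D4:**
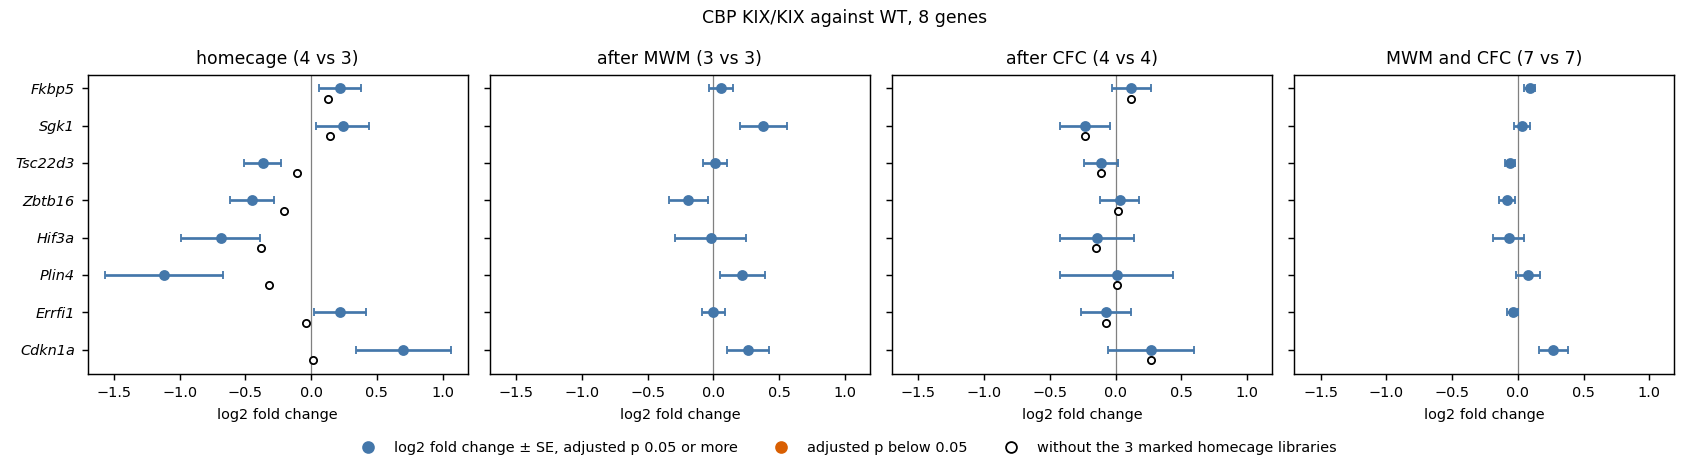
Log2 fold changes of CBP KIX/KIX against WT libraries (horizontal axes, points with SE bars) are drawn for the 8 member genes (vertical axis) in homecage, after MWM, after CFC and after both, with open circles for the values without the 3 RNA-Seq 2 homecage libraries that stood apart. No point passes the adjusted threshold, and the homecage values of Plin4 (-1.12) and Cdkn1a (0.7) move to -0.32 and 0.01.

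A wider list of 22 other glucocorticoid-induced genes had few members past the adjusted threshold and more at an unadjusted edgeR p below 0.05. After MWM, 0 of the 21 tested passed (median log2 difference 0.08), beside 0.0135% of all genes. The unadjusted p was below 0.05 for 4 (2 higher), beside 10.9%. After CFC in WT mice 0 of 22 passed (median 0.02), beside 0%, and 4 (3 higher) had the lower unadjusted p, beside 2.39%. After CFC in CBP KIX/KIX mice 0 passed and 9 of 22 (6 higher) had it, beside 13%. Over both experiments 10 of 22 (8 higher) had it for learning in WT mice, beside 17.3%. There 2 of 22 rose and 0 fell by adjusted p, beside 1.04% of all genes called (0.404% higher). Per1, the clock gene with glucocorticoid and CREB elements, rose by 0.44 (SE 0.05, edgeR adjusted p = 0.000993, higher in 7 of 7). The MAP kinase phosphatase Dusp1 rose by 0.61 (SE 0.1, edgeR adjusted p = 0.0132, higher in 6 of 7). The median of the list was 0.04 and that of all genes -0.03. In the trained CBP KIX/KIX libraries 3 of 21 were lower and 0 higher than in WT, beside 2.84% of all genes called in either direction. An unadjusted edgeR p below 0.05 was reached by 7 of 21 (3 higher), beside 18.2%. Per1 differed by -0.3 (SE 0.04, edgeR adjusted p = 0.00191) and Dusp1 by -0.36 (SE 0.06, adjusted p = 0.00899), both lower in 7 of 7. The glycerol phosphate dehydrogenase Gpd1 differed by -0.18 (SE 0.03, edgeR adjusted p = 0.0118). With no factors of unwanted variation none of these 5 calls held, and the differences kept their sign under all 22 alternatives.

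The 10 activity-induced genes, run for comparison, moved further. Fos (log2 1.14, edgeR adjusted p = 0.0125) and Egr2 (2.21, adjusted p = 0.0229) rose after MWM, 2 of 10 beside 0.0135% of all genes. Both calls were lost with replicate numbers as a term (edgeR adjusted p = 0.0794 for Fos and 0.147 for Egr2) and without WT homecage replicate 1, WT MWM replicate 1 or WT MWM replicate 2, where the adjusted p reached 0.114 and 0.181. Over both experiments 9 of 10 rose, beside 0.404% of all genes called higher. The median difference of the 10 was 0.94, beside 0.01 for the 8 members. The calls of Fosb, Ier2 and Npas4 were lost with no factors of unwanted variation. Egr1 rose by 0.97 (SE 0.07, edgeR adjusted p = 3.94e-05). In trained CBP KIX/KIX mice 5 of 10 were lower, beside 2.84% of all genes called in either direction. Fos differed by -0.51 (SE 0.06, edgeR adjusted p = 0.000654) and Junb by -0.31 (SE 0.04, adjusted p = 0.000654). The median of the 10 was -0.28, beside 0 for the members. With no factors 0 of these 5 calls held, and the adjusted p of Fos was 0.0536. After CFC in WT mice edgeR called 0 of 10, although all 10 were higher, with a median of 1.22. An unadjusted edgeR p below 0.05 was reached by 6 of 10, beside 2.39% of all genes. That fit pooled its spread over 4 groups, CBP KIX/KIX homecage replicate 3 included.

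The receptors themselves did not move past the threshold. The glucocorticoid receptor Nr3c1 differed by 0.14 (SE 0.1) after MWM, 0.01 (SE 0.07) after CFC and 0.08 (SE 0.04, edgeR adjusted p = 0.298) over both in WT mice. The mineralocorticoid receptor Nr3c2 differed by 0.02 (SE 0.09), 0.08 (SE 0.09) and 0.05 (SE 0.05). Of the list of 14 receptors, hormone-handling enzymes and chaperones, 0 passed in either direction for learning, beside 1.04% of all genes over both experiments. In trained CBP KIX/KIX mice 1 of the 13 tested fell, beside 2.84% of all genes called in either direction. It was the corticotropin-releasing hormone binding protein Crhbp, by -0.35 (SE 0.07, edgeR adjusted p = 0.0147), a call lost with no factors.

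Across the 24 libraries, after centring each experiment, the member pairs most alike were Hif3a with Plin4 and Fkbp5 with Cdkn1a (Pearson's r = 0.771 and 0.772, over log2 CPM). Without the 3 homecage libraries the first was 0.506 and the second 0.3, while Tsc22d3 and Errfi1 went from 0.422 to 0.768 and Tsc22d3 and Hif3a from 0.723 to 0.694. Of the 13753 genes with a mean of at least 1 CPM in every group, those most like Errfi1 were Tiparp (r = 0.924), Arl5b (0.879) and Nfkbiz (0.859), and those most like Plin4 were Paqr8 (0.859), Hif3a and Xdh (0.71). Klhl2 (0.849) was most like Fkbp5 and Skil (0.871) most like Cdkn1a. Afg1l (0.807), Mtrr (0.794) and Bri3bp (0.845) were most like Sgk1, Tsc22d3 and Zbtb16. These most similar genes were computed over all 24 libraries only, and not without the 3 homecage libraries. The points are not independent of the design, since the libraries of a group share training and genotype.

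Sgk1 tended to run with choroid plexus markers and Zbtb16 against them, relations that did not pass after adjustment. The 5 markers of this secretory epithelium, which borders the hippocampus, ranged in their sum from 114.6 to 2393 CPM among the RNA-Seq 1 libraries (20.9-fold) and from 29.4 to 4568 CPM among those of RNA-Seq 2 (155-fold), the widest ranges of the 9 marker lists, and none was at 0 in any library. On log2 scales the correlation with Sgk1 was r = 0.673 (exact permutation p = 0.0411, adjusted 0.219) and Spearman's rho = 0.6 (exact permutation p = 0.0968, adjusted 0.387) over 9 libraries of RNA-Seq 1. Over the 15 of RNA-Seq 2 it was r = 0.524 (permutation p = 0.0335, adjusted 0.219) and rho = 0.611 (p = 0.0174, adjusted 0.278). Leaving out the 2 libraries farthest from the median marker sum gave r = 0.514 and 0.594. Without the 3 homecage libraries that stood apart the RNA-Seq 2 value was 0.689. None of the 16 two-sided relations computed, 8 members in 2 experiments, passed after adjustment. Zbtb16 ran the other way, with r = -0.67 in RNA-Seq 1 (exact permutation p = 0.0286, adjusted 0.219), the lowest Pearson p of the 16. In RNA-Seq 2 it was r = -0.496 (permutation p = 0.0617, adjusted 0.247), and -0.37 without the 3 homecage libraries. With the marker sum as a covariate, a choice made after seeing the data, the Sgk1 difference after MWM was 0.18 and after CFC in WT mice 0.04, in place of 0.28 and 0.21. Those of Zbtb16 were 0.04 and -0.15, in place of -0.03 and -0.26.

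**Figure D5:**
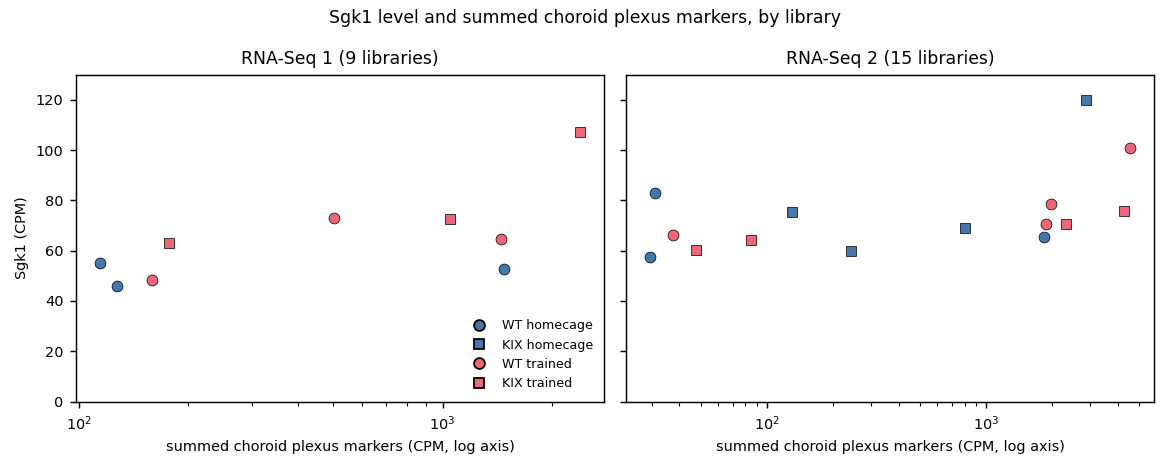
Each point is 1 library, with the summed CPM of 5 choroid plexus markers on a log axis (horizontal) and the CPM of Sgk1 (vertical), for RNA-Seq 1 (left, 9 libraries) and RNA-Seq 2 (right, 15 libraries), coloured by training and shaped by genotype. The libraries with the largest Sgk1 values, 107 and 119.7 CPM, lie towards the right of their panels.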

How the data were processed

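RNA was sequenced from dorsal hippocampus in 24 libraries of 7 groups. The authors deposited raw counts per gene, made by aligning reads with STAR, handling them with SAMtools 1.6 and counting with featureCounts 1.4.4, and kept no normalization in them. The strand setting and annotation release are not given in the sources used here. Gene identifiers were matched to GENCODE M21 on GRCm38 (51633 of 51826). Counts were scaled by upper quartile, filtered with filterByExpr and fitted with edgeR 4.0.16 in R 4.3.3 (quasi-likelihood test, Benjamini-Hochberg adjustment over all genes tested). Every adjusted p without another tool named comes from edgeR. Each experiment was fitted over all its groups, and both together with experiment as a term and 3 (learning) or 4 (genotype) RUVr factors, which are estimated from residuals. The numbers of factors follow the study's methods, which estimated them after GC-content scaling; here they were estimated after upper-quartile scaling alone, and GC-content scaling was an alternative. SE is the standard error of the log2 difference. Alternatives used DESeq2 1.42.0, TMM, GC-content scaling over 10 bins, no filter, replicate numbers as a block, fewer factors and each library left out. Scripts were tested on simulated counts. Neither labels nor methods tie each library to its own animal, so p-values measure the spread between libraries, which may be in part technical. The labels do not say what a replicate number stands for. Deviations from the group means correlated in every same-numbered pair of the learning comparisons. The r ran from 0.157 to 0.432 in RNA-Seq 1 WT, 0.263 to 0.585 in RNA-Seq 2 WT and 0.186 to 0.46 in CBP KIX/KIX mice. Differently numbered pairs reached 0.141 in RNA-Seq 1 WT and 0.194 in RNA-Seq 2 WT. Deviations are centred within each group, so positive r in same-numbered pairs pushes the others below 0, and the contrast is partly built in. Over all pairs of groups the mean r of same-numbered and differently numbered pairs was -0.0506 and 0.0291 in RNA-Seq 1. In RNA-Seq 2 it was 0.221 and -0.0749. The numbers may mark pairs in WT mice, which these data cannot settle. In CBP KIX/KIX mice differently numbered pairs reached 0.288, so the numbers did not stand out there. The genotype comparisons held same-numbered pairs down to -0.328. The main fits left the numbers out. Replicate pairs differed beyond counting noise, so all were counted.

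The members and the other gene lists were chosen with earlier results of these data known. Named are the 8 members throughout, Nr3c1, Nr3c2, Per1 and Dusp1, genes of the other lists with adjusted p below 0.05 (at most 4 by lowest p per list and comparison) and, per member, the genes with the highest correlation over log2 CPM (prior count 2).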

Additional observations from a re-analysis of the deposited data

Results flagged for a closer look

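In the groups of 4 libraries, the lowest and highest were set against the rest for 12 genes, the members, Nr3c1, Nr3c2, Per1 and Dusp1 (36 groups in all), and about 1 in 20 groups is marked by chance. Errfi1 was marked in CBP KIX/KIX CFC replicate 2, at 48.59 CPM with the other 3 close together between 42.43 and 42.97 CPM. WT CFC replicate 4 read 49.01 CPM. Errfi1 stood far above its group in CBP KIX/KIX homecage replicate 3, at 74.39 CPM with the others between 34.95 and 36.18 CPM. Nr3c1 was high in CBP KIX/KIX CFC replicate 4, at 85.76 CPM against 75.1 to 76.74 CPM. Of the genes of the lists, Fos and Btg2 differed between MWM and CFC in their learning differences in WT mice. The learning by experiment difference was -1.66 on the log2 scale (SE 0.22, edgeR adjusted p = 0.0318) for Fos and -1.09 (SE 0.15, edgeR adjusted p = 0.0318) for Btg2. Btg2 read 18.1, 18.6 and 18.2 CPM after MWM against 20.9, 21.8 and 19.3 CPM in homecage, and 34.5, 27.6, 30.2 and 38.8 CPM after CFC against 17.3, 18.8 and 15.5 CPM. The call was lost in 8 of 18 alternatives for Fos (edgeR adjusted p up to 0.13) and in 10 of 18 for Btg2 (up to 0.163), all with 1 library left out except TMM for Btg2. Behaviour task, library kit and experiment cannot be told apart in these differences.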

How the results depend on the processing

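No member's called result changed direction. Of the member results under all alternatives, 1323 kept their direction and their side of the threshold, 10 passed it newly, 2 lost it and 81 turned sign, all of the latter in differences that had not passed. With the replicate block the Errfi1 call over both experiments was lost without factors, leaving 0 of 8 members, and kept with them, while the genotype comparison over both experiments then called 1 member, Cdkn1a (0.28, adjusted p = 0.0353), beside 2787 genes in place of 610. In the genotype comparisons the numbers were not read as pairs. The block changed no other call of a member. In WT mice after MWM, 2 members passed with DESeq2 and 2 with no filter on low counts. Over both experiments 0 members passed for learning with no RUVr factors. Leaving out each library in turn gave 0 to 2 members called after MWM, 0 to 1 for genotype in homecage, 1 to 2 for learning over both experiments and 0 to 1 for genotype over both experiments, the last being Sgk1 without WT CFC replicate 2 (0.13, adjusted p = 0.0361). The cause of these changes was not tested.

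Zbtb16 after MWM turned to 0.04 with the choroid plexus covariate, DESeq2 and GC-content scaling, 0.03 with TMM and 0 with no filter, and ran from -0.12 to 0.14 without single libraries. Cdkn1a after MWM was 0 with DESeq2 and GC-content scaling (-0.13 to 0 without single libraries). Without the 3 homecage libraries that stood apart, Tsc22d3 (0.22) and Cdkn1a (0.01) after CFC in WT mice turned, as did Hif3a (0.17), Plin4 (0.24), Errfi1 (0.32) and Cdkn1a (0.27) after CFC in CBP KIX/KIX mice, Errfi1 by genotype in homecage (-0.04), and the genotype by CFC interaction of Tsc22d3 (0) and Cdkn1a (0.26). Errfi1 after CFC in CBP KIX/KIX mice was also 0.01 with the choroid covariate, 0.03 with the replicate block and 0.01 with replicates 1 and 2 against 3 and 4 as a term. By genotype after MWM, Tsc22d3 was 0 with the choroid covariate and -0.01 with no filter. Hif3a was 0 with DESeq2 and GC-content scaling, 0.04 with the replicate block and 0.01 with TMM. Errfi1 was 0.01 with DESeq2, 0 with only the groups compared and 0.02 with TMM. By genotype after CFC, Zbtb16 was -0.01 and Plin4 -0.03 with the choroid covariate, and Plin4 was -0.02 with the replicate block and with replicates 1 and 2 against 3 and 4. For learning over both experiments, Fkbp5 was 0.04 and Plin4 0.05 without WT homecage replicate 3 of RNA-Seq 2 and with no factors, and Hif3a was -0.05 with 1 factor and with none.

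Single libraries left out turned further differences, which then ranged as follows. After CFC in WT mice Cdkn1a ran from -0.39 to 0.01 and Tsc22d3 from -0.19 to 0.22. After CFC in CBP KIX/KIX mice Errfi1 ran from -0.13 to 0.31, Hif3a from -0.27 to 0.05 and Plin4 from -0.28 to 0.17. By genotype after MWM Errfi1 ran from -0.07 to 0.05, Fkbp5 from -0.02 to 0.14, Hif3a from -0.26 to 0.17 and Tsc22d3 from -0.06 to 0.06. By genotype after CFC Plin4 ran from -0.07 to 0.07 and Zbtb16 from -0.03 to 0.13. By genotype in homecage Errfi1 ran from -0.11 to 0.33, Plin4 from -1.53 to 0.04 and Sgk1 from 0 to 0.39. In the genotype by CFC interaction Errfi1 ran from -0.4 to 0.04, Fkbp5 from -0.28 to 0.06, Hif3a from -0.04 to 0.81, Plin4 from -0.02 to 1.55 and Tsc22d3 from -0.01 to 0.4. In the learning by experiment interaction Cdkn1a ran from -0.07 to 0.33 and Sgk1 from -0.09 to 0.22. For learning over both experiments Fkbp5 ran from -0.07 to 0.04, Hif3a from -0.08 to 0.32 and Plin4 from -0.5 to 0.07. For genotype over both experiments Sgk1 ran from -0.08 to 0.13.

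The number of genes called moved more than the members did. For learning over both experiments it was 229, against 9 with no factors, 855 with DESeq2 and 2277 without WT homecage replicate 3 of RNA-Seq 1, and for genotype 610, against 4 with no factors and 936 with DESeq2. For genotype in homecage it was 5, against 58 with DESeq2. After CFC in CBP KIX/KIX mice it was 0, against 300 with DESeq2 and 999 without CBP KIX/KIX homecage replicate 1. After CFC in WT mice it was 0, against 21 with only the groups compared and 14 without the 3 homecage libraries.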
